A study of Bos taurus with 8 samples.

Results

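The cells described here are NCR1-positive natural killer (NK) cells of bovine blood, 277 cells of the 28641 with 200 to 3000 detected genes. They were chosen by their own counts. A cell was taken where it held at least 1 unique molecular identifier (UMI, 1 captured transcript) of NCR1, no UMI of CD3D, CD3E or CD3G, none of MS4A1 and none of CD14. These 6 genes and every other gene of the same cells were therefore read by the choice, and the contrast of these cells with the rest of the blood is given as a description. The rule did not read the change of their transcripts over time after lipopolysaccharide (LPS). The members and the gene lists were, however, chosen with earlier results of these data known. Counts of called genes in those lists are therefore given as descriptions too.

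NK cells are innate lymphocytes that kill infected or transformed cells without a rearranged antigen receptor. They carry granules of perforin, granulysin and granzymes, and they weigh signals of activating receptors, such as NCR1 (NKp46), against those of inhibitory receptors that read MHC class I. Cytokines from macrophages and dendritic cells that have met bacterial LPS drive NK cells to release interferon-gamma and chemokines. NCR1 is the marker commonly used to recognise NK cells in cattle.

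Blood came from 4 female lactating Holstein cows of 2 years of age and was pooled, and the pool was divided into a portion without LPS and portions kept with 2 μg/ml LPS for 2, 4 or 8 h. Mononuclear cells of each portion gave 1 single-cell RNA library. All 4 groups thus shared the same cows, tissue and pool, and they differed in LPS and in the time it was present. How long the portion without LPS was incubated is not given in the sources used here, so time in culture and LPS cannot be told apart. With 1 library for each treatment no test between treatments was possible, and every interval printed covers counting error only. In pooled blood, individual cows cannot be separated either.

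The rule found 57 cells in the portion without LPS, and 94, 89 and 37 cells after 2, 4 and 8 h. As a share of cells these were 0.725% (95% exact binomial interval 0.549 to 0.938%), 0.949% (0.768 to 1.16%), 1.198% (0.963 to 1.47%) and 1.08% (0.759 to 1.48%). The interval without LPS met that at 2 h and at 8 h and lay just below that at 4 h. A cell with more transcripts had a greater chance of showing NCR1, and the members had a median of 4571, 4609.5, 5350 and 6916 UMIs in that order. Every cell was also thinned to 2000 UMIs, which left out 14.8%, 12.2%, 9.34% and 27.1% of cells as shallower. With the rule applied again, the shares were 0.4625%, 0.563%, 0.609% and 0.7585%. A cell that lost its CD3, MS4A1 or CD14 UMIs in thinning could then newly meet the rule.

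**Figure D1:**
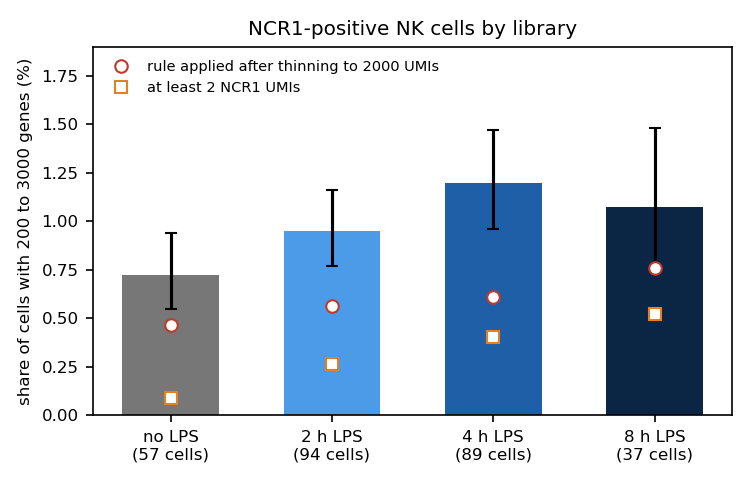
Share of cells that met the NCR1 rule in each library (bars, percent of cells with 200 to 3000 genes), with 95% exact binomial intervals. Open circles give the share when the rule was applied after thinning to 2000 UMIs, from 0.4625% without LPS to 0.7585% at 8 h, and open squares the share with at least 2 NCR1 UMIs.

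Most of the 277 members sat at the edge of the rule. Exactly 1 NCR1 UMI was held by 50 of 57, 68 of 94, 59 of 89 and 19 of 37 cells, in the order of no LPS, 2 h, 4 h and 8 h that is kept below. Cells with 1 NCR1 UMI carried CCL5 at 9970, 9448, 11254 and 10421 CPM (UMIs scaled to a total of 1000000 over the cells summed), and cells with 2 or more carried 3645, 11145, 11596 and 9924 CPM. The low value is from the 7 cells without LPS that had 2 or more NCR1 UMIs, and those 7 cells also held no GNLY UMI. Just outside the rule were cells with NCR1 and a CD3 UMI, 41, 44, 44 and 11 of them. NCR1 was also seen in 0 of 1672, 5 of 2376, 6 of 1879 and 1 of 647 MS4A1-positive B cells, 0%, 0.210%, 0.319% and 0.155%, to be set beside the 0.725%, 0.949%, 1.198% and 1.08% of cells that met the rule. B cells should lack the gene, and 0 of 1672 cells allows a share of up to 0.179%. Their median depth was 3841 to 5494.5 UMIs.

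Of the 5 markers given for these cells, the rule named only NCR1, and the other 4 were seen in most members, with GNLY the exception. CCL5, a chemokine stored by cytotoxic lymphocytes, was at 8892, 9941, 11384 and 10141 CPM and was present in 94.6 to 100% of cells. NKG7, a granule membrane protein, was found in 71.9%, 69.1%, 75.3% and 81.1% of cells, and PRF1, perforin, in 71.9%, 78.7%, 70.8% and 75.7%. GNLY, the membrane-permeabilising peptide granulysin, was less even and appeared in 36.8%, 45.7%, 25.8% and 24.3% of cells. At least 2 of these 4 markers were seen in 54 of 57, 89 of 94, 83 of 89 and 33 of 37 cells. All members but 1 held at least 1 of the markers. That cell, at 8 h, had 1 NCR1 UMI and none of NKG7, GNLY, PRF1 or CCL5, while 52 of its 3149 UMIs were of monocyte markers. It goes against the label, and the calls at 8 h are also given without it and 1 other cell, taken out together. No doublet caller was run, and the members held between 1179 and 14923 UMIs.

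Markers of other blood cells were lower in the members than in those cells. The rule itself set CD3D, CD3E, CD3G, MS4A1 and CD14 to 0, so these were left out of the sums here. The other 14 monocyte markers summed to 305, 124, 58.6 and 402 CPM, against 48211 to 70075 CPM in CD14-positive monocytes, and LYZ, CD163, SIRPA and MS4A7 were at 0 in all 4 libraries. Without the 1 cell at 8 h the sum there was 201 CPM. The other 12 T cell marker rows summed to 190, 95.3, 91.8 and 144 CPM against 592 to 686.5 CPM in CD3-positive T cells. The other 10 B cell markers summed to 21.5 to 39.0 CPM against 1567 to 2214 CPM in MS4A1-positive B cells. Dendritic cell markers summed to between 0 and 58.5 CPM, with FLT3, CLEC9A and FCER1A at 0 throughout. Between 8 and 24 cell barcodes were shared by each pair of libraries, and no member shared its barcode with a member of another library.

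The genes that set the members apart from all other cells were ranked by the smallest of the 4 log2 ratios. Of the leading 15, 9 had a gene name, and the files do not pair the other 6 identifiers with names. IDO1, the enzyme that breaks down tryptophan, led the named genes with 2474, 2834, 2850 and 2410 CPM in the members against 99.4 to 126 CPM in all other cells. NKG2A, the inhibitory lectin receptor paired with KLRD1, was at 273, 117, 137 and 226 CPM against 2.595 to 5.85 CPM. SPRY2, an inhibitor of growth factor signalling, KLRB1, an inhibitory lectin, and TAL1, a haematopoietic transcription factor, were also among the 9, with GNLY, CCL5, NKG7 and PRF1. The identifier ENSBTAG00000009943 headed the list at 750, 538, 375 and 2114 CPM against 14.1 to 24.4 CPM.

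A second gate held cells with no UMI of NCR1, CD3, MS4A1 or CD14 but with at least 2 of 6 granule genes (PRF1, GZMA, GZMB, GNLY, NKG7 and CTSW), and it numbered 129, 144, 93 and 23 cells. IDO1, which took no part in that gate, stood there at 2613, 2395, 2418 and 2515 CPM, close to the members, while CD3-positive cells chosen by the same granule genes had 431 to 636 CPM and T cells as a whole 65.9 to 91.9 CPM. NKG2A was at 106 to 213 CPM in the NCR1-zero granule cells and at 7.59 to 23.8 CPM in granule T cells. IL7R, the interleukin-7 receptor of resting T cells, ran the other way, with 39.0 to 82.0 CPM in the members, 83.5 to 133.5 CPM in NCR1-zero granule cells and 964.5 to 1347 CPM in granule T cells. At 2000 UMIs a cell, IL7R was seen in 4.30 to 8.77% of members and in 61.7 to 70.9% of granule T cells. The NCR1-zero gate was more mixed, since plasma cell markers summed there to 1401, 1228, 2364 and 214 CPM, against 50.3 to 97.5 CPM in the members, and monocyte markers to 114 to 722.5 CPM.

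**Figure D2:**
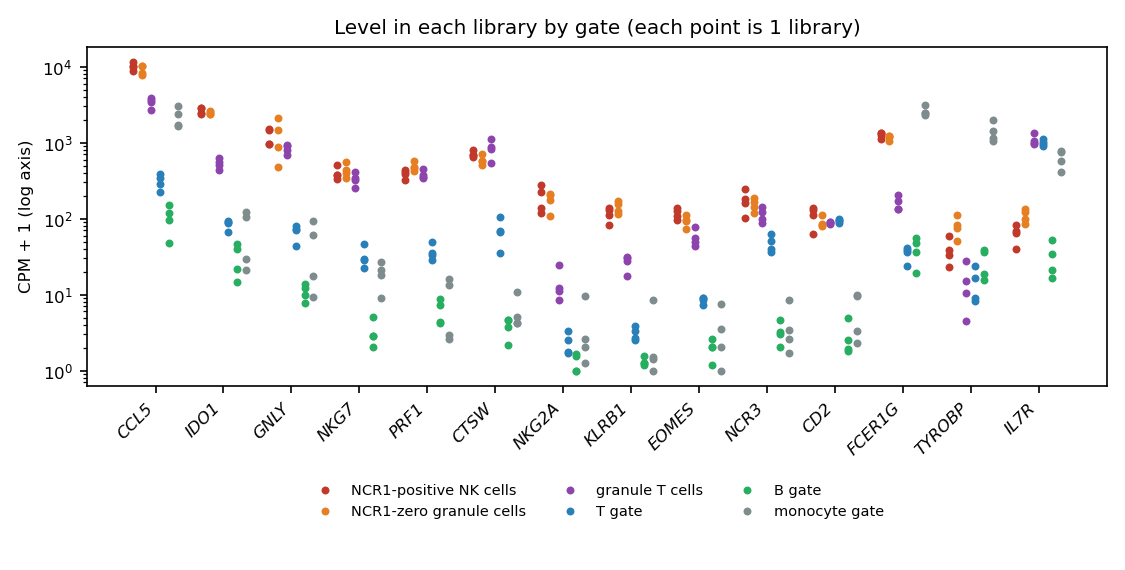
Level of 14 genes (CPM + 1, log axis) in 6 gates of cells, each point 1 library, so that a point at 1 is a gene at 0 CPM. The NCR1-positive NK cells and the NCR1-zero granule cells sit together for IDO1, NKG2A and KLRB1 and above granule T cells, which hold IL7R. GNLY, NKG7, PRF1 and CTSW chose both granule gates.

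Among activating receptors, NCR3 (NKp30) was at 248, 180, 160 and 101 CPM, KLRK1 (NKG2D) at 93.3, 82.0, 84.0 and 93.6 CPM, and FCGR3A (CD16), the receptor for antibody-coated targets, at 133, 197, 152 and 136.5 CPM. KLRJ1 was at 0 in all libraries, as were the inhibitory receptors KLRG1 and TIGIT. The adaptors that pass on receptor signals were uneven. FCER1G, which pairs with NCR1 and CD16, was at 1325, 1320, 1252 and 1123 CPM and was present in 97.3 to 100% of cells, and HCST (DAP10), the partner of KLRK1, was at 384, 383, 328 and 402 CPM. TYROBP (DAP12), an adaptor of other activating receptors, was at 32.3, 22.2, 37.1 and 58.5 CPM, against 1040 to 1983 CPM in monocytes.

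The granule content was also uneven. SRGN, the proteoglycan that packs granules, was at 2276, 2134, 2223 and 2110 CPM, and CTSW, a cysteine protease of cytotoxic cells, at 682, 680, 643 and 807 CPM. Rows with a granzyme name were at or near 0. Of the 21861 genes 5070 have an identifier only, and whether granzymes lie among them was not tested. GZMK and 1 of the 2 rows named GZMB had no UMI in any library, the other GZMB row had 2, 4, 4 and 0 UMIs, and GZMM had 3, 1, 1 and 0. GZMA had 5, 0, 1 and 14 UMIs, 13 of the 14 in 1 cell at 8 h. EOMES, a T-box factor of NK cells, was at 108, 126, 93.8 and 136.5 CPM, and TBX21 (T-bet) was lower, at 28.7, 53.2, 19.5 and 46.8 CPM.

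For the response to LPS, UMIs were summed over the members of each library, and a gene was called when log2((CPM+5)/(CPM+5)) against no LPS reached 1 in either direction, that is 2-fold after adding 5 CPM to both sides. Only genes with at least 40 UMIs in the 2 libraries compared were measured, and a gene low without LPS could pass that filter through the LPS library alone. At 2 h 65 of 2038 measured genes were called higher (3.19%) and 13 lower (0.638%). At 4 h 82 of 2200 were higher (3.73%) and 34 lower (1.55%), and at 8 h 42 of 1526 were higher (2.75%) and 25 lower (1.64%). The median over all measured genes was 0.04, 0.02 and -0.02 on the log2 scale. The members summed to 278553, 451369, 512021 and 256392 UMIs, so 1 UMI was worth 3.59, 2.22, 1.95 and 3.90 CPM, and the libraries at both ends of the series were the least precise.

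At 2 h the members took on an activation pattern led by genes of the NF-kB pathway, the transcription factor route that LPS and cytokines switch on. Of the 25 listed activation and NF-kB genes, 17 were measured at 2 h and 12 were called higher and none lower, beside 3.19% of all measured genes, with a median log2 ratio of 1.17. At 4 h and at 8 h 13 were measured. Members such as ZC3H12A passed the minimum through their 2 h UMIs, so the count of calls leaned in part on that filter. The same 17 genes had medians of 1.29 in NCR1-zero granule cells, 0.97 in granule T cells, 1.14 in the T gate, 1.31 in the B gate and 1.60 in the monocyte gate, so the other cells of the blood moved too. Over all 25 genes without any filter the summed level was 4200, 7362, 5322 and 5542 CPM, and 23 of the 25 were above their level without LPS at 2 h. IDO1 made up much of that sum. Without it the other 24 summed to 1727, 4528, 2473 and 3132 CPM.

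BATF, an AP-1 factor induced by cytokines, was at 133, 704.5, 259.8 and 343 CPM, and it was seen in 35.1% and then 80.9%, 67.4% and 54.1% of cells. Its log2 ratio at 2 h was 2.36 (95% interval 1.91 to 2.94 for the ratio of counts, before the 5 CPM). NFKBIA, the inhibitor that NF-kB itself induces, was at 179.5, 509.6, 197 and 406 CPM, and NFKB2, an NF-kB subunit, at 79.0, 286, 182 and 97.5 CPM. Both were highest at 2 h. ZC3H12A, a nuclease that degrades cytokine transcripts, had 4 UMIs without LPS and 39 at 2 h, a ratio of 6.02 in CPM, and it had 14 UMIs at 4 h and 4 at 8 h. TNFRSF18 (GITR), a co-stimulatory receptor, was at 108, 350, 137 and 331.5 CPM.

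Other genes that rose most at 2 h were not of this list. SGK1, a serum- and stress-regulated kinase, was at 10.8, 182, 99.6 and 74.1 CPM. Its 3 UMIs without LPS leave the ratio at 2 h, 16.9, with an interval of 2.48 to 6.38 on the log2 scale. ITPKB, a kinase of inositol phosphates, rose from 28.7 to 120 CPM, MARCKS, a membrane-bound substrate of protein kinase C, from 18.0 to 99.7 CPM, and ATG4D, a protease of autophagy, from 14.4 to 79.8 CPM. CD2, an adhesion receptor that co-stimulates NK cells, was at 61.0, 137, 109 and 129 CPM. It was called at 2 h and 8 h, with log2 ratios of 1.11 and 1.02, while 0.79 at 4 h was under the 2-fold line.

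Interferon-gamma marked 2 h. IFNG had 0 UMIs in the 57 cells without LPS, which allows up to 10.8 CPM, and then 92, 18 and 3 UMIs. At 2 h that was 204 CPM (exact Poisson interval 164 to 250.0), at least 18.9-fold higher by the limit without LPS alone, and the exact interval of the ratio, which also takes in the error of the 92 UMIs, began at 3.915 on the log2 scale. The transcripts were held by 13 of 94 cells, with 32 UMIs in the highest cell and 60 left without it, and by 7 of 89 cells at 4 h and 2 of 37 at 8 h. The NCR1-zero granule cells gave 123 CPM at 2 h from 13 of 144 cells, granule T cells 38.0 CPM and the T gate 5.52 CPM, and the B gate had 7 UMIs in 2371 cells. Single cells weighed heavily there too. The highest cell held 47 of 85 UMIs in the NCR1-zero granule cells, 31 of 57 in granule T cells and 31 of 124 in the T gate. In each gate a minority of cells carried the transcript, and at 2000 UMIs a cell it was found in 11.8% of members and in 0.133% of B cells.

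**Figure D3:**
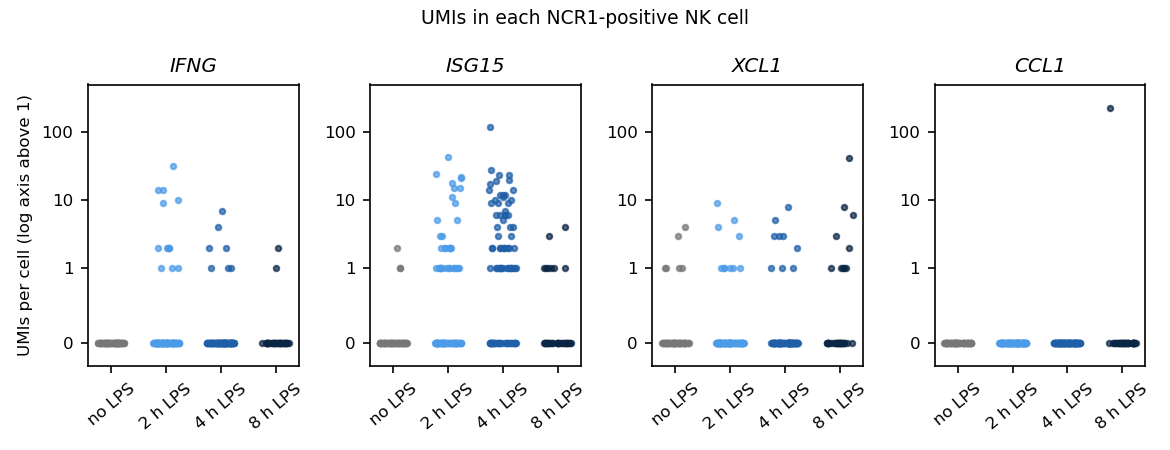
UMIs of IFNG, ISG15, XCL1 and CCL1 in each NCR1-positive NK cell by library (vertical axis linear to 1 and logarithmic above, points spread sideways to be seen). IFNG appears in 13 of 94 cells at 2 h, ISG15 spreads to 56 of 89 cells at 4 h, and all 228 CCL1 UMIs at 8 h lie in 1 cell.

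The chemokines CCL3 and CCL4, which draw monocytes and T cells, were also called higher at 2 h. CCL4 was at 205, 501, 68.4 and 172 CPM, and single cells weighed heavily, with 42 of 57 UMIs without LPS and 100 of 226 at 2 h in the highest cell. Without the highest cell of each library its log2 ratio was 2.27 at 2 h and -0.13 at 4 h, instead of 1.27 and -1.51, so the lower call at 4 h rests on 1 cell without LPS. CCL3 was at 108, 272.5, 156 and 421 CPM, and 16769 CPM in monocytes at 2 h. At that time the level in the members was under 2% of the monocyte level, and the part of free monocyte RNA in it was not tested.

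The inhibitory pair NKG2A and KLRD1 was lower at 2 h. Of 3 measured genes in the list of inhibitory receptors 1 was called lower, KLRD1, beside 0.638% of all measured genes, and none higher, and NKG2A was called in a list added with the files in view. KLRD1 (CD94), the partner chain of NKG2A, was at 93.3, 31.0, 35.2 and 66.3 CPM, and NKG2A itself at 273, 117, 137 and 226 CPM. The log2 ratios at 2 h were -1.45 (interval -2.64 to -0.60) and -1.18 (-1.75 to -0.69), and at 8 h they were -0.46 and -0.27 and not called. KLRD1 was seen in 33.3%, 13.8%, 15.7% and 32.4% of cells at full depth, and in 14.0%, 6.45%, 10.2% and 10.8% at 2000 UMIs a cell. At 2000 UMIs a cell, NKG2A was found in 38.6%, 18.3%, 20.5% and 27.03% of members. In NCR1-zero granule cells it was found in 32.5%, 28.1%, 22.7% and 27.8%. Its log2 ratio in those cells was -0.28 at 2 h and -0.97 at 4 h, so the fall at 2 h was smaller there. In granule T cells it was -0.94 at 2 h. KLRB1 was not called at any time, with 136, 82.0, 129 and 109 CPM. CD27, a co-stimulatory receptor of less mature NK cells and of T cells, was at 89.7, 33.2, 58.6 and 97.5 CPM.

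At 4 h the leading genes were those induced by type I interferon, the antiviral cytokine family. Of 30 listed interferon-stimulated genes in the files, 13 were measured at 4 h, 8 were called higher and none lower, beside 3.73% of all measured genes, and the median log2 ratio was 1.33. Only 6 and 4 were measured at 2 h and 8 h. Members such as MX1 and OAS1Y passed the minimum through their 4 h UMIs, so the count of calls leaned on that filter. Over all 30 genes with no filter the summed level was 1066, 1958, 3570 and 1232 CPM, and 27 of the 30 were above their level without LPS at 4 h. Without ISG15 the other 29 summed to 1052, 1467, 2658 and 1182 CPM.

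ISG15, a ubiquitin-like modifier, had 4, 222, 467 and 13 UMIs, or 14.4, 492, 912 and 50.7 CPM. It spread from 3 of 57 cells to 34 of 94 and 56 of 89, and was back in 8 of 37 at 8 h. MX1, a dynamin-like antiviral GTPase, had 2, 12, 132 and 6 UMIs, and OAS1Y, a sensor enzyme of double-stranded RNA, had 3, 11, 86 and 2. Most of their transcripts were thus seen at 4 h. RSAD2 (viperin) was at 10.8, 46.5, 117 and 19.5 CPM. IFIH1, a cytoplasmic RNA sensor, and IRF7, the factor that amplifies interferon, were already called at 2 h. IFIH1 was at 118, 350, 334 and 183 CPM and IRF7 at 39.5, 99.7, 146.5 and 39.0 CPM. IFI6, a listed member, was level at 158, 184, 156 and 148 CPM.

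The interferon pattern was shared by the other cells of the blood. At 4 h the median log2 ratio over the same 13 genes was 1.46 in NCR1-zero granule cells, 1.12 in granule T cells, 1.40 in the T gate, 1.93 in the B gate and 1.65 in the monocyte gate. ISG15 was at 912 CPM in the members at 4 h, at 1531 CPM in T cells and at 5328 CPM in B cells. At 2000 UMIs a cell it was found in 0%, 20.4%, 44.3% and 10.8% of members and in 14.8%, 48.6%, 79.4% and 42.7% of B cells. All gates were compared with their own portion without LPS, so these values share one untreated library.

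**Figure D4:**
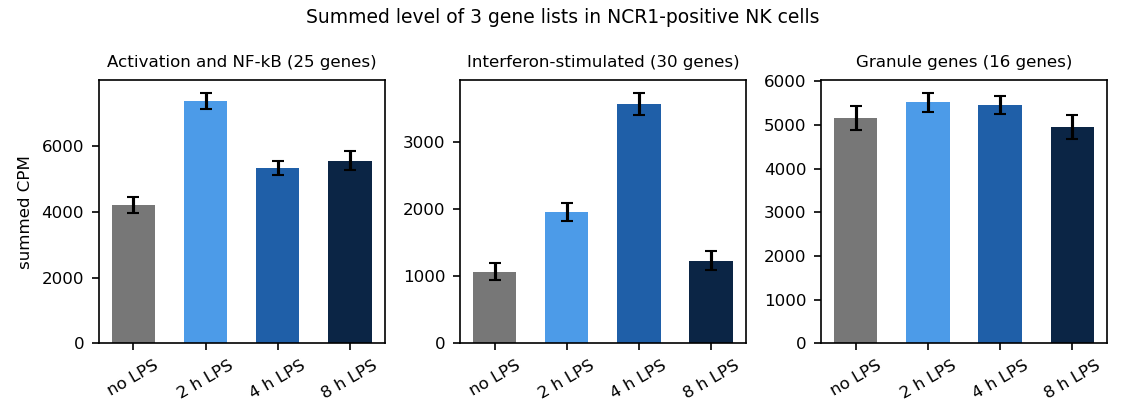
Summed CPM of 3 gene lists in NCR1-positive NK cells by library, over all listed genes in the files and with no filter, with 95% exact Poisson intervals. The activation list is highest at 2 h (7362 CPM), the interferon-stimulated list at 4 h (3570 CPM), and the granule list stays between 4942 and 5517 CPM.

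**Figure D5:**
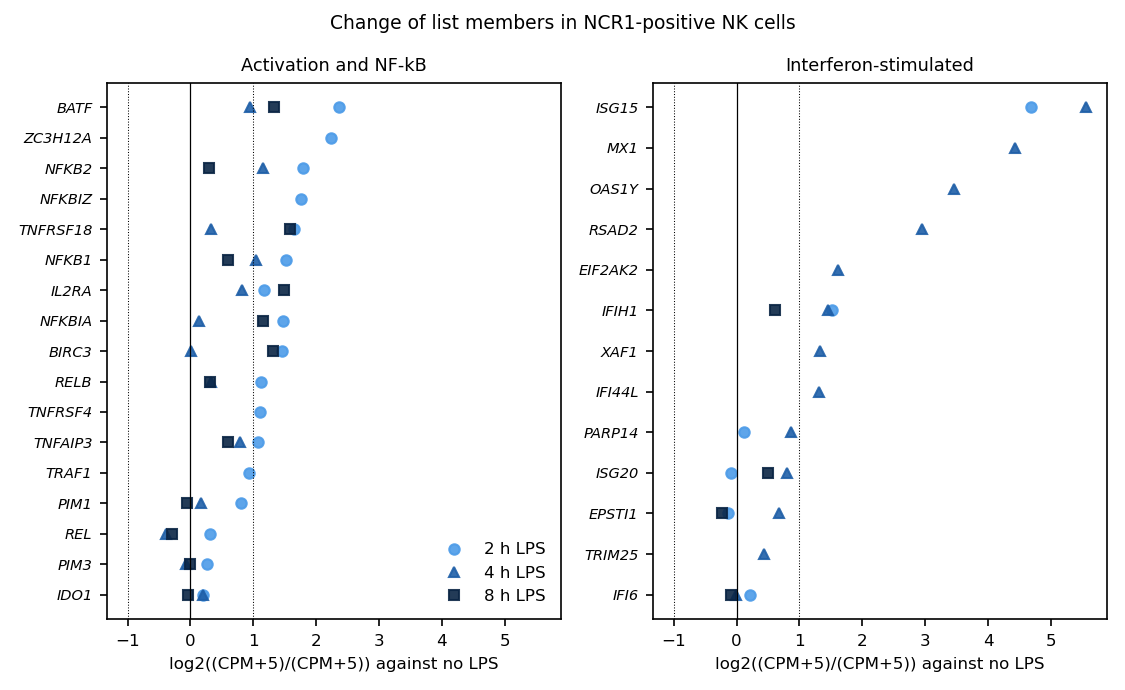
Log2((CPM+5)/(CPM+5)) of list members in NCR1-positive NK cells at 2, 4 and 8 h against no LPS. A symbol is drawn only where the gene had at least 40 UMIs in the 2 libraries compared, and dotted lines mark 2-fold. The symbols of 2 h lie farthest right for the activation genes except IL2RA and IDO1, and those of 4 h for the interferon-stimulated genes except IFIH1 and IFI6.

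None of the 8, 7 and 7 measured granule genes was called at 2, 4 or 8 h. Of all measured genes 3.19%, 3.73% and 2.75% were called higher and 0.638%, 1.55% and 1.64% lower, so a count of 0 in so short a list is near the background. The 16 listed genes summed to 5152, 5517, 5455 and 4942 CPM. NKG7 was at 509.8, 372, 377 and 331.5 CPM, and PRF1 was at 388, 430, 412 and 324 CPM. GNLY was at 955, 1511, 1471 and 959.5 CPM, and at 4 h 277 of its 753 UMIs lay in 1 cell. None of the 13 measured genes of the MHC class I pathway was called at any time, which is also near those shares.

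Both chains of the integrin LFA-1 and the genes S100A4, PVRIG and PTPN6 were called lower at 4 h. S100A4, a calcium-binding protein of motile cells, was at 912, 518, 305 and 659 CPM, with a log2 ratio of -1.57 at 4 h (interval -1.88 to -1.29). ITGB2 and ITGAL, the LFA-1 chains with which NK cells hold their targets, were at 162, 97.5, 64.5 and 144 CPM and at 255, 182, 119 and 148 CPM. Of the 8 measured homing and adhesion genes, these 2 were called lower and none higher, beside 1.55% of all measured genes called lower. PVRIG, an inhibitory receptor, was at 194, 99.7, 62.5 and 93.6 CPM, and PTPN6 (SHP-1), the phosphatase that inhibitory receptors recruit, at 115, 57.6, 41.0 and 93.6 CPM. PVRIG was called lower at 4 h and 8 h and had -0.93 at 2 h. CX3CR1, the fractalkine receptor of circulating cytotoxic cells, had 25, 28, 12 and 7 UMIs and was under the minimum at 4 h and 8 h.

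Some changes lasted through 8 h. RGS1, which damps chemokine receptor signals, was at 115, 374, 473 and 554 CPM and was seen in 24.6%, 55.3%, 66.3% and 83.8% of cells. HIF1A, the oxygen-regulated transcription factor, was at 39.5, 82.0, 109 and 183 CPM. PLIN2, a coat protein of lipid droplets, was at 43.1, 144, 156 and 148 CPM, and SLC2A3, a glucose transporter, at 68.2, 155, 170 and 156 CPM. RGS1, PLIN2 and SLC2A3 were called higher at all 3 times. TNFSF10 (TRAIL), the death ligand, was at 215, 237, 432 and 491 CPM and was called at 8 h, with a log2 ratio of 1.17 (interval 0.74 to 1.66), while 0.99 at 4 h fell just under the line.

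At 8 h a few NK genes were called lower. Of 5 measured activating receptors NCR3 was called lower and CD2 higher, beside 1.64% and 2.75% of all measured genes. LTB, lymphotoxin beta, was at 126, 79.8, 58.6 and 23.4 CPM, with a log2 ratio of -2.20 at 8 h (interval -3.97 to -1.16), while in the T gate it was at 566, 598, 715 and 774 CPM. NCR3 was at 101 CPM against 248 without LPS, a log2 ratio of -1.25. At 2000 UMIs a cell, NCR3 was found in 21.05%, 26.9%, 31.8% and 18.9% of members. By that measure it was only slightly lower at 8 h, and higher at 2 h and 4 h. In NCR1-zero granule cells it was found in 31.6%, 28.1%, 23.9% and 38.9%, the last of 18 cells. LGALS9 (galectin-9) was at 355, 253, 234 and 140 CPM, CITED2, a transcriptional co-regulator, at 169, 109, 91.8 and 62.4 CPM, and S1PR5, the receptor by which NK cells leave the marrow for the blood, at 111, 104, 93.8 and 46.8 CPM. For STMN1, a tubulin-binding protein of dividing cells, the call at 8 h rests on 1 cell. It had 38, 60, 95 and 5 UMIs, 33 of the 38 in 1 cell without LPS, and the log2 ratio was -2.53 with that cell and -0.16 without the highest cells.

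Of the 6 effector cytokines and chemokines called higher at 8 h, CCL1, IL22 and CSF2 came almost wholly from 1 cell, and CCL3, XCL1 and TNFSF10 did not. The highest cell for each still held 57 of 108 UMIs of CCL3 and 41 of 65 of XCL1, but 16 of 126 of TNFSF10. The list had 6 of 10 measured genes higher and LTB lower at 8 h, beside 2.75% and 1.64% of all measured genes. CCL1, IL22 and CSF2 had 0 UMIs without LPS and were measured only through the 8 h library, so the filter fixed their calls. At 2 h the list had 3 of 8 higher and none lower, beside 3.19% and 0.638%, and at 4 h none of 7 higher and CCL4 and LTB lower, beside 3.73% and 1.55%. Of the 3 at 2 h, IFNG also had 0 UMIs without LPS and was measured only through the LPS library. Without the cell that held the CCL1 UMIs and the marker-free cell, 3 of 7 were higher and 1 lower at 8 h. CCL1 had 228 UMIs, IL22 54 and IL2 15, each with every UMI in the same cell, which also held 57 of the 59 UMIs of CSF2. CCL1 is a chemokine for CCR8, IL22 acts on epithelium, CSF2 (GM-CSF) on myeloid cells and IL2 on lymphocytes. The cell had 9191 UMIs and 2302 genes, 2 UMIs of NCR1, 39 of CCL5, 8 of CTSW, 3 of NKG7 and 5 of FCER1G, none of IDO1, GNLY, PRF1, EOMES, KLRB1 or GATA3, and 3 of IL7R. It met the rule, but whether it was an NK cell, another lymphocyte or 2 cells under 1 barcode was not tested. It held 39 of 85 UMIs of TNFRSF18, 25 of 67 of IL2RA, 48 of 104 of NFKBIA and 246 of 542 of ENSBTAG00000009943. Beyond CD3, which the rule kept at 0, it held 1 UMI of CD6 and none of CD4, CD8A, CD5, CD27, ICOS, TRAT1 or BCL11B.

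XCL1, the chemokine by which NK cells call cross-presenting dendritic cells, was spread more widely at 8 h. It had 11, 27, 27 and 65 UMIs, in 6 of 57, 10 of 94, 9 of 89 and 10 of 37 cells, with 41 of the 65 in the highest cell. Its log2 ratio at 8 h was 2.54 (interval 1.75 to 3.75) and 1.71 without the highest cell of each library. In the T gate it was seen in 0.0637 to 0.151% of cells at 2000 UMIs and in 4.30 to 18.9% of members. In the NCR1-zero granule cells it was seen in 5.26%, 4.32%, 3.41% and 16.7%, so the contrast with T cells was not particular to cells with an NCR1 UMI.

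Without the CCL1 cell and the marker-free cell with monocyte transcripts, the members at 8 h numbered 35 and the calls there fell from 42 to 25 higher and stayed at 25 lower, 22 of them shared in each direction. The activation list had been called higher for 5 of 13 measured genes at 8 h (TNFRSF18, IL2RA, BATF, BIRC3 and NFKBIA), beside 2.75% of all measured genes, with a median log2 ratio of 0.60. None of the 5 stayed at 2-fold without the 2 cells, and the median was 0.34. CCL3, XCL1, TNFSF10, CD2, SLC2A3, RGS1, HIF1A and PLIN2 stayed above 2-fold, and LTB, NCR3 and S1PR5 below. The cells with most CCL3 and most XCL1 UMIs were not among the 2 cells left out.

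Several inflammatory chemokines moved at levels that were at or under 2% of those in monocytes. CCL2 was at 183, 33.2, 15.6 and 168 CPM in the members and at 34179, 10689, 6325 and 9522 CPM in the monocyte gate, and CXCL5 at 330, 164, 104 and 640 CPM against 69783 to 81779 CPM. GRO1, CXCL2, CXCL8 and SOD2 were named apart on the same ground. In the T gate CCL2 was at 253, 59.1, 14.8 and 212 CPM and CXCL5 at 435, 284, 190 and 906 CPM. The number of CD14-positive monocytes was 787, 376, 156 and 161, and the part of free monocyte RNA in these values was not tested. At 8 h the marker-free cell held 77 of 164 UMIs of CXCL5, 20 of 43 of CCL2 and 16 of 39 of CXCL8.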

How the data were processed

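Whole blood was treated and mononuclear cells were isolated and run on a droplet 3' kit with UMIs. The files the authors deposited hold unnormalised UMI counts for every gene in every barcode, made with Cell Ranger on ARS-UCD1.2/bosTau9 per the labels. The 4 RNA libraries held 30902952 to 63770426 UMIs each, in 30756 barcodes in all, over 21861 genes, of which 5070 have an identifier only. The members and gene lists (27, and 1 added later) were chosen with earlier results of these data known. Counts were summed over the members of a library and scaled to CPM. Genes were named if they belonged to the rule, the markers or a list, were among the 10 largest rises or falls at a time with an interval that left out 1, among the 15 leading genes, or were called in opposite directions in the T or B gate. Genes at or under 2% of their monocyte level were named apart. Ratio intervals are 95% exact conditional binomial intervals, and level intervals are exact Poisson. The calculation was tested on simulated Poisson sums. These held no spread between cells, so that test does not cover genes whose UMIs lie mostly in 1 cell. Alternatives were other gates, thinning, scaling factors of edgeR 4.0.16 and DESeq2 1.42.0, pseudocounts and minimum counts, and, chosen after seeing the data, leaving out single cells. The 4 chromatin libraries were not used here.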

Additional observations from a re-analysis of the deposited data

Results flagged for a closer look

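A gene without a name in the files, ENSBTAG00000047816, was called in opposite directions at 4 h, with a log2 ratio of 2.13 in NCR1-positive NK cells and -1.57 in the T gate. It went from 5 to 49 UMIs in the NK cells, 43 of the 49 in 1 cell, and the ratio was 0.46 without the highest cell of each library. GRO1, a neutrophil chemokine, had a log2 ratio of -1.39 at 4 h in the NK cells, from 25 to 16 UMIs, and 1.198 in the B gate, at levels at or under 2% of those in monocytes. Neither difference between gates was tested, since each treatment had 1 library.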

How the results depend on the processing

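No paired analysis was possible because each treatment had 1 library. Requiring 2 NCR1 UMIs gave shares of 0.0890%, 0.2625%, 0.404% and 0.524%, and thinning to 2000 UMIs gave 0.4625%, 0.563%, 0.609% and 0.7585%. After thinning 27 genes were called higher and 1 lower at 2 h, 15 and 5 at 4 h, then 7 and 6 at 8 h, of which only 6 and 0, 4 and 2, and 2 and 1 were among the calls reported. With a minimum of 20 UMIs they numbered 137 and 77, 183 and 94, and 102 and 82, and with a minimum of 1 UMI 627 and 678, 751 and 647, and 878 and 912. With at least 2 NCR1 UMIs most of the called genes differed, even where their number was similar. For 2 h, 44 genes were called higher, only 10 of them among the 65 reported, while 22 were lower, with 1 shared. For 4 h, 59 were higher, only 12 of them among the 82 reported, while 23 were lower, with 3 shared. For 8 h, 27 were higher, with 8 shared, while 14 were lower, with 1 shared. The interferon-stimulated median for 4 h was 3.93 under this setting. Thinning gave an activation median of -0.59 at 8 h. Without the CCL1 cell and the marker-free cell 25 genes were higher at 8 h. For named genes, the minimums of 20 and 1 UMI could not change a ratio, and 0 members had 20% or more mitochondrial UMIs. The 71 values under each of these settings were therefore fixed to stay the same, and they are counted below. Of 876 values of named genes under all alternatives, 812 stayed within a band at least as wide as their counting interval, 56 moved beyond it and 8 changed direction. With at least 2 NCR1 UMIs these were PGRMC2 at 2 h (0.445), CCL4 at 4 h (2.03), and ENSBTAG00000004714 (0.25), CXCL2 (-0.16) and GRO1 (-0.68) at 8 h. After thinning they were ENSBTAG00000047816 (-3.42), IDH3G (0.077) and ALDH2 (0.48) at 4 h. Only 7 cells without LPS had 2 or more NCR1 UMIs, and 31, 49, 41 and 19 cells met the rule after thinning, so fewer genes could be measured. The cells that met the rule after thinning need not all be members, since a cell could lose its CD3, MS4A1 or CD14 UMIs. Time in culture, LPS and the library cannot be told apart, and genes under the minimum were not measured.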

Other observations

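The other gene lists are short, and their counts stand beside shares of 3.19%, 3.73% and 2.75% of all measured genes called higher and 0.638%, 1.55% and 1.64% lower at 2, 4 and 8 h, so that no call or 1 call in a list is near the background. None of the measured genes was called at any time among transcription factors of NK cells (9, 9 and 8 measured), signalling adaptors (7 each time), immediate early genes (7, 7 and 6), heat shock genes (8 each time) or the single measured gene of the ATF4 and amino acid list. SLC2A3 was the 1 called gene of 11, 12 and 11 measured glycolysis genes, although the 15 listed genes summed to 2405, 2565.5, 2971 and 2789 CPM. Of the cytokine receptors only IL2RA was called, at 2 h and 8 h, of 5 and 3 measured, and of the interferon regulatory and STAT genes only IRF7, at 2 h and 4 h, of 9 measured each time. Of 2 measured brakes of cytokine signalling PTPN6 was called lower at 4 h, and of 6, 6 and 3 measured proliferation genes only STMN1 was called, lower at 8 h. Of the remaining marker lists, gamma-delta T cell markers summed to 58.6 to 79.8 CPM in the members, granulocyte markers to 15.5 to 66.3 CPM, erythroid markers to 17.6 to 25.1 CPM and platelet markers to between 0 and 15.5 CPM.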
